A study of Mus musculus with 12 samples.

Results

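Clone EM3 is a line grown from a single cell of 4T1, a mouse mammary carcinoma line used as a model of triple-negative breast cancer. The cells described here are those that the authors annotated as tumour cells in the Total library of the EM3 tumour, the library of the whole dissociated tumour. They were 1986 of the 8607 cells of that library, or 23.1% (95% Clopper-Pearson interval 22.2 to 23.98%). They were also 1986 of the 19935 annotated tumour cells, and of all 60657 cells, of the 6 Total libraries. All 12 libraries of the series together hold 115612 cells.

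The 6 groups were tumours of the clones E, EM1, EM2, EM3 and M and of the parental 4T1 line, and the design relates the position of a clone between epithelial and mesenchymal to the immune cells of its tumour. All were grown in the mammary fat pad of female BALB/c mice, listed as 9 to 11 weeks old, whose immune system is intact. Each group was 1 tumour of 1 line, and each clone is the progeny of 1 cell, so a difference between groups cannot be told apart from a difference between animals, tumours or captures. The labels describe the 5 clones as epithelial, intermediate or mesenchymal without saying which clone is which. No test between tumours was possible and no p-value was computed. The 95% intervals below cover counting error only.

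Epithelial cells hold to their neighbours through tight junctions built on claudins, adherens junctions built on E-cadherin and desmosomes that anchor keratin filaments. In an epithelial-mesenchymal transition, transcription factors of the Snai, Zeb and Twist families repress many of these genes while the intermediate filament vimentin and matrix genes rise. Carcinoma cells often stop at intermediate states that hold features of both programmes.

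The EM3 tumour cells gave 29437624 UMIs, unique molecular identifiers that each mark 1 captured RNA molecule. Their median was 15261 UMIs and 4858 genes per cell, with 0.394% mitochondrial UMIs. The tumour cells of the other tumours numbered 795 in E, 2916 in EM1, 3382 in EM2, 4845 in M and 6011 in the parental line, with 5345546 UMIs in E, the shallowest, and 88230338 in the parental tumour, the deepest. Scrublet called 19 of the 1986 EM3 tumour cells (0.957%) doublets. They were kept, and leaving out doublets lost none of the genes named as standing apart. A UMI of Ptprc, the leukocyte antigen CD45, was present in 160 EM3 tumour cells (8.06%).

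EM3 Total shared 1434 of its droplet barcodes (16.7% of its cells) with E Total, 1400 with E CD45 and 1345 (15.6%) with EM3 CD45, the CD45-enriched library of the same tumour. It shared 0.837 to 1.64% with each of the remaining libraries. The probe barcodes of EM3 Total and of the E libraries differ, so no full cell barcode was shared with them. EM2 Total and M Total carry the same probe barcode as EM3 Total and share 99 and 141 full barcodes with it. How the libraries were pooled for capture is not given in the sources used here. Over the Total and CD45 libraries of E and EM3, 785 EM3 tumour cells (39.5%) and 306 E tumour cells (38.5%) had a droplet barcode in common with another of these libraries. Without those cells, the 11 genes called lower below were all called again, among 12.

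The label was checked against 4 markers. Krt8, a keratin of simple epithelia, stood at 1503 CPM (UMI counts scaled to a total of 1000000 per library) in EM3 tumour cells and at 42.5 to 208 CPM in the 7 other named classes of that library. The other class, 103 cells annotated as Unknown, held 724 CPM. Serpine2, an inhibitor of thrombin and plasminogen activators, reached 882 CPM, above the 566 CPM of fibroblasts. Vim, vimentin, was as high in endothelial cells (19467 CPM) as in tumour cells (19029 CPM). Axl, a receptor tyrosine kinase, stood at 936 CPM in tumour cells, 906 CPM in fibroblasts and 887 CPM in macrophages. Krt8 thus set the tumour class apart from the named classes, Serpine2 was highest in it by a smaller margin, and Vim and Axl were at like levels in at least 1 other class. Marker genes of other cell types were summed as well. None of the 8 macrophage genes was at 0, and they summed to 356 CPM in EM3 tumour cells, 83.2 to 501 CPM in the other tumours and 23144 CPM in EM3 macrophages. The 6 granulocyte genes summed to 526 CPM, against 190 to 1516 CPM elsewhere, and the 8 fibroblast genes to 243 CPM, against 208 to 365 CPM. Their part in the results below was not tested, except where the level in another class is given.

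The first question was where EM3 tumour cells stood outside the range of all 5 other tumours. Counts were summed over the tumour cells of each library, and 5828 genes with at least 50 CPM in at least 1 library were compared as log2 ratios of CPM + 10. EM3 lay at least 2-fold below the lowest of the others in 11 genes, which is 0.189% of those compared, and at least 2-fold above the highest in 1 gene, or 0.0172%. The same counts were 47 below and 149 above for E, 17 and 24 for M, 3 and 3 for EM2, 0 and 18 for EM1, and 0 and 0 for the parental tumour. Against all 5 other tumours, EM3 was thus marked by a small set of genes at low levels. The counts moved with the reference. They were 27 below and 1 above without M, 19 and 8 without EM2, and 10 and 6 without the parental tumour. Without E they were 11 and 2, and without EM1 12 and 1. Of the 11, 3 are on the list of epithelial junction genes and 1 is a keratin, and genes of these lists are described first.

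Krt7, a keratin of glandular epithelia, showed the largest gap of all genes compared. It stood at 6.42 CPM (95% interval 5.54 to 7.40) in EM3, against 578 in E, 257 in EM1, 164 in EM2, 163 in M and 252 in the parental tumour. The log2 ratio to the lowest other tumour was -3.40. At an equal depth of 5000 UMIs per cell, 2.20% of EM3 tumour cells held a Krt7 UMI, compared with 42.3 to 78.3% in the other tumours and 0.133% of EM3 macrophages, a cell type that should lack it. The remaining keratins did not go with Krt7 to the same degree. Krt8 was 1503 CPM in EM3, between the 1192 CPM of M and the 2248 CPM of the parental tumour, and its partner Krt18 was 590.4 CPM against 603 to 1059 CPM, the lowest value by CPM but not under TMM factors, an alternative scaling, or without the most abundant genes. The basal keratin Krt14 stood at 0.577 CPM in EM3, 1.76 in M and 498 in E. Krt19 was lower in M (7.22 CPM) than in EM3 (11.8 CPM). Of 6 keratins compared, EM3 was the lowest of the 6 tumours in 4, where 15.4% of all genes compared were lowest in EM3, and without E in 2 of 4.

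Cldn4, a claudin of tight junctions, stood at 12.7 CPM (95% interval 11.4 to 14.02) in EM3, with 4589 in E, 578 in EM1, 88.2 in EM2, 103 in M and 292 in the parental tumour. The ratio to EM2, the next lowest, was -2.12 on the log2 scale. Epcam, the epithelial cell adhesion molecule, stood at 4.69 CPM (95% interval 3.94 to 5.54), with 1564 in E, 140.1 in EM1, 121 in EM2, 49.3 in M and 255 in the parental tumour. Both genes were low in EM3 and M, intermediate in the parental tumour, EM1 and EM2 and highest in E, except that Cldn4 in EM2 was below M. A UMI of Epcam was found in 1.99% of EM3 tumour cells at 5000 UMIs, against 16.1 to 97.2% elsewhere and 0.567% of EM3 macrophages. Jup, plakoglobin, which links cadherins to the cytoskeleton in desmosomes and adherens junctions, was 44.6 CPM against 807 in E, 375 in EM1, 249.6 in EM2, 117 in M and 223 in the parental tumour. This level was below the 60.9 CPM of EM3 macrophages, and the share of cells with a Jup UMI was 16.3% in EM3 tumour cells and 21.4% in those macrophages.

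Lad1, ladinin, a protein of the anchoring filaments below epithelia, was 11.4 CPM (95% interval 10.2 to 12.7) in EM3 and 72.6 to 356 CPM in the others, a log2 ratio of -1.95 to M. Ripk4, a kinase needed for differentiation of the epidermis, was 2.99 CPM against 20.9 to 77.3 CPM. The collagen receptor kinase Ddr1 was 15.4 CPM against 45.8 to 89.8 CPM. For each of these 3 genes the EM3 interval lay apart from every other tumour. Without E in the reference, Ripk4 was no longer among the genes compared or called.

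Among 20 genes of epithelial junctions, 16 were compared, and EM3 was the lowest of the 6 tumours in 12 and the highest in 0, beside 15.4% lowest and 10.7% highest over all genes compared. The median log2 ratio of the 16 to the median of the other tumours was -1.35, beside -0.03 over all genes. Against that median EM3 was at least 2-fold lower in 10 of the 16 and higher in 0, beside 68 genes lower (1.17%) and 41 higher (0.704%) over all. Leaving out 1 other library at a time gave a list median of -1.81 (without M) to -1.35. Without E, 12 genes of the list were compared and 8 were lowest, beside 22.3% of all genes. Without M, 15 of 16 were lowest and 1 highest, beside 19.4% and 15.9% of all genes. Cdh1, E-cadherin, was 3.23 CPM in EM3, 4.22 in M, 24.3 in EM2, 25.7 in EM1, 52.7 in the parental tumour and 735 in E. Here EM3 and M were close, and the fold on the CPM + 10 scale did not separate them. The tight junction claudins Cldn3 and Cldn7 gave the same order at the low end, with 0.510 and 3.57 CPM in EM3 and 1.27 and 4.80 CPM in M. The desmosomal genes Dsp and Dsg2 were lower in M (5.30 and 0.708 CPM) than in EM3 (11.2 and 1.09 CPM). Perp, a desmosomal membrane protein, was 36.8 CPM against 75.7 to 263 CPM. Tjp1, the scaffold ZO-1, went the other way, with 178 CPM in EM3 and 128 to 231 CPM elsewhere, and F11r was 192 CPM against 187 to 384 CPM. Dsp, Dsg2, Tjp1 and F11r were the 4 genes of the list inside the range of the other tumours, and each of the other 12 was lowest in EM3.

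**Figure D1:**
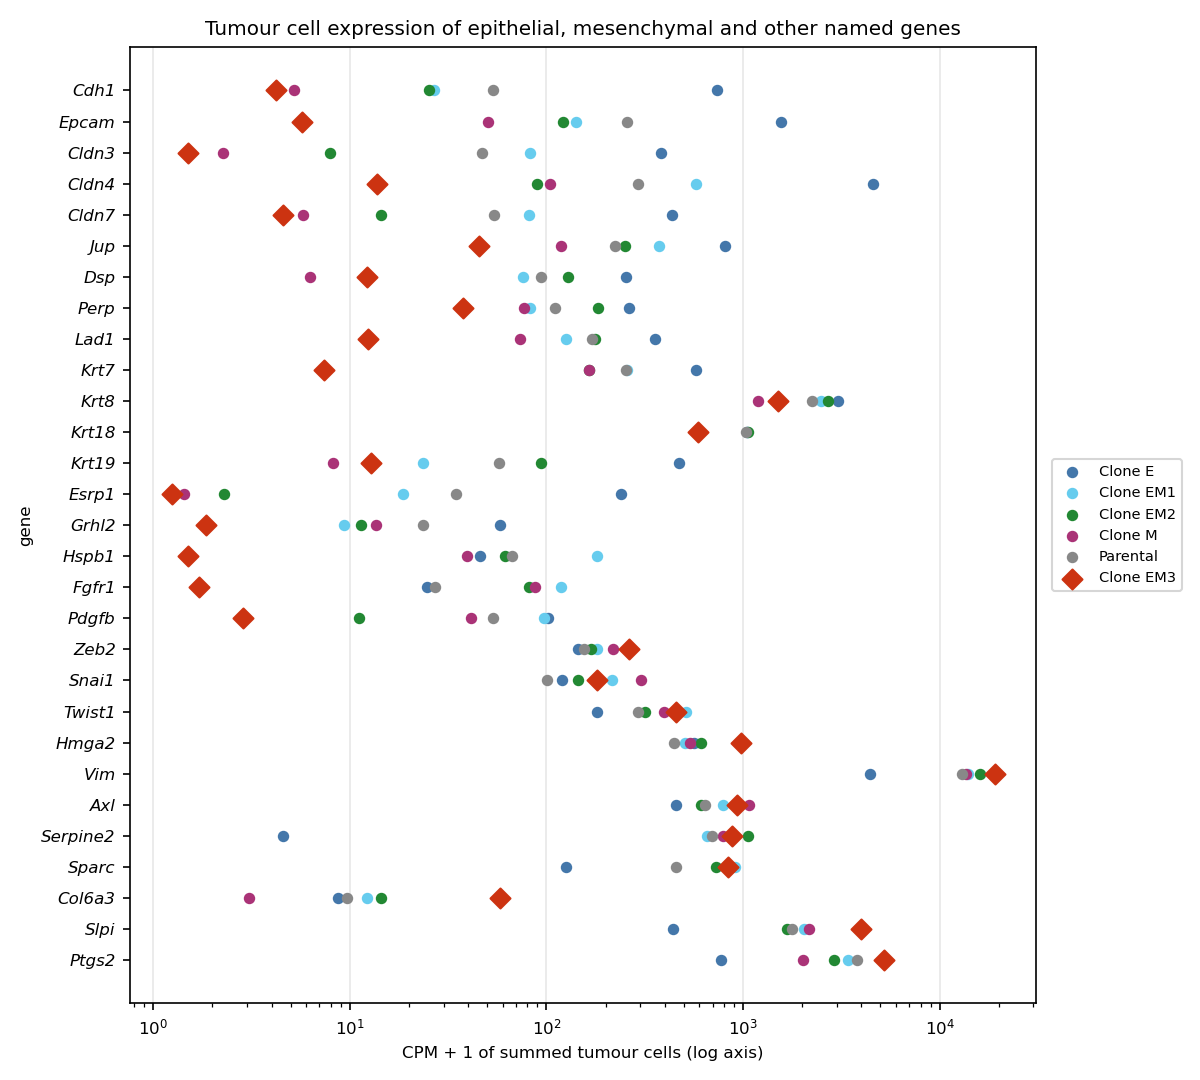
CPM + 1 of summed tumour cells (log axis) for 29 genes named in the text, with 1 point per tumour and the red diamond for EM3. EM3 is the leftmost point for Krt7 (6.42 CPM), Epcam (4.69 CPM) and Cldn4 (12.7 CPM), and the rightmost for Vim (19029 CPM), Hmga2 (973 CPM) and Slpi (3979 CPM).

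Among regulators of the epithelial state, 4 of 11 compared were lowest in EM3 (36.4%, beside 15.4% of all genes) and 4 stood above the median of the other tumours. Grhl2, a transcription factor that drives junction genes, was 0.849 CPM (95% interval 0.550 to 1.25) in EM3 and 8.31 to 56.9 CPM elsewhere. Esrp1, an epithelial splicing factor, was 0.238 CPM in EM3, 0.428 in M, 1.30 in EM2 and 237 in E. In contrast, Klf4 (755 CPM, others 545 to 1053), Klf5 (471 CPM, others 399 to 628) and Gata3 (455 CPM, others 279 to 461), transcription factors of epithelial or luminal cells, were inside the range of the other tumours. None of the 11 was highest in EM3 (Gata3 was when cells with shared droplet barcodes were left out), and the median log2 ratio was -0.47. Without E the median was -0.16 and 1 of 7 compared was lowest, beside 22.3% of all genes.

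Few EM3 tumour cells held a UMI of 7 epithelial genes at low levels, chosen after their values were seen. Of 1861 EM3 tumour cells with at least 5000 UMIs, all thinned to that depth, 1616 (86.8%) held no UMI of any of the genes Epcam, Cldn4, Krt7, Lad1, Cldn3, Cldn7 and Cdh1. A UMI of 1 of these 7 genes was present in 202 cells, of 2 genes in 36 cells and of 3 genes in 7 cells, and no cell held 4 or more, at levels so low that few cells could hold several at this depth. Junction genes at higher levels, such as Jup, Perp, Tjp1 and F11r, are not among the 7, and over the whole junction list a cell held a median of 3 UMIs, with 8.81% of cells at 0. The 43 cells with 2 or more had a median of 90 Vim UMIs, beside 89 in the cells with none. Cldn4 was uneven among the few cells that held it. Its UMIs were found in 57 of the 1861 cells, of which 9 held 5 or more, and the highest held 14.

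Because these genes were low together, their promoters were read from the RefSeq table of build GRCm38.p6, in windows from 250 bases before to 50 bases after each start. The E-box CACCTG, or CAGGTG on the other strand, is bound by Snai and Zeb repressors. It occurred in 14 of the 18 promoters of epithelial junction genes in the table (77.8%, 10 of 13 genes), in 4 of 6 keratin promoters (66.7%), in 7 of 13 promoters of epithelial regulators (53.8%), and in 3631 of all 18592 promoters (19.5%). Of the promoters of EMT transcription factors, 2 of 12 held it (16.7%). The general E-box CANNTG, which includes it, was in 83.3% of the junction promoters and in 68.2% of all promoters. These are matches of letters in the reference sequence and not measured binding sites, and their part in the low levels was not tested. The table held promoters of 13 of the 20 junction genes, and none of Cdh1. Not all of the low genes held CACCTG or CAGGTG: in the same window there was no match for Jup, Lad1 or Hspb1, in the first Cldn7 promoter of the table or in 3 of 4 Ddr1 promoters. The promoters printed are those of 4 low genes chosen because they hold the motif, and of Krt8, which holds it too and stayed expressed, though at a log2 ratio of -0.73 to the median of the other tumours. Each line holds the 250 bases before the start on the strand of the gene, 5′ to 3′, with CACCTG or CAGGTG in capitals.
Epcam (chr17:87635729-87635978, plus strand): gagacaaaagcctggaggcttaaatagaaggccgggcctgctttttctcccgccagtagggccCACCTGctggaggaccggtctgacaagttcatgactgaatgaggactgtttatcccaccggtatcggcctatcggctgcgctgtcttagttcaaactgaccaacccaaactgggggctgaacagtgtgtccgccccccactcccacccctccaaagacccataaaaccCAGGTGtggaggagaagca
Cldn4 (chr5:134946935-134947184, minus strand): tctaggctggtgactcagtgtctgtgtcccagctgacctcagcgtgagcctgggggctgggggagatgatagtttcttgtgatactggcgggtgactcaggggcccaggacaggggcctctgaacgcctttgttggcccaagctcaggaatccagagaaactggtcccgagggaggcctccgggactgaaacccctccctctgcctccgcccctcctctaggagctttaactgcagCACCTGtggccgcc
Krt7 (chr15:101412153-101412402, plus strand): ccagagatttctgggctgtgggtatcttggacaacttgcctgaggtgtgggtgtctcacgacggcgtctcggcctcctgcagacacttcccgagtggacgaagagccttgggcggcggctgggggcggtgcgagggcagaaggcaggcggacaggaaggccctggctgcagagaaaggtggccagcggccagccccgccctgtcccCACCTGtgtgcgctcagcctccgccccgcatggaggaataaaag
Cldn7, the second of its promoters in the table (chr11:69965171-69965420, plus strand): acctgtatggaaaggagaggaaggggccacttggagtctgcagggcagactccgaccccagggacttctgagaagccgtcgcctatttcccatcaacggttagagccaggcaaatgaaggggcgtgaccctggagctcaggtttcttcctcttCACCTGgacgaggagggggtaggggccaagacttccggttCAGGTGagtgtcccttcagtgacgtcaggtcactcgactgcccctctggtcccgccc
Krt8 (chr15:102004343-102004592, minus strand): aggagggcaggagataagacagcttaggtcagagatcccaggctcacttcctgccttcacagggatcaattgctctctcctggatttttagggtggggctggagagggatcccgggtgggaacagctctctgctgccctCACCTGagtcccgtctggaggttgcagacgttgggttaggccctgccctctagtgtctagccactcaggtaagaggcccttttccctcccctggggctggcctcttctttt
Krt8, with the motif as well, stood at 1503 CPM in EM3.

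Transcription factors of the transition did not share the pattern of the junction genes. Zeb2, a repressor of E-cadherin, was highest in EM3 with 261 CPM, against 143 in E, 179 in EM1, 168 in EM2, 217 in M and 154 in the parental tumour. Snai1 was 181 CPM in EM3 and 303 CPM in M, and Twist1 was 453 CPM in EM3 and 511 CPM in EM1, so that neither was highest in EM3. Hmga2, a chromatin protein of embryonic and tumour cells, was 973 CPM in EM3 and 444 to 608 CPM in the others, a log2 ratio of 0.67 to the highest of them. Zeb1 (5.33 CPM) and Snai2 (0.136 CPM) were low in EM3, as in the other tumours. Over 11 such factors, 2 were highest and 2 lowest in EM3 (18.2% each), beside 10.7% highest and 15.4% lowest over all genes compared. The median log2 ratio was 0.08, or -0.02 without M or without the parental tumour.

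Vim was 19029 CPM in EM3, against 4418 in E, 13992 in EM1, 16024 in EM2, 13557 in M and 12962 in the parental tumour. EM3 was the highest, by 0.25 on the log2 scale over EM2 and by 2.10 over E. Every EM3 tumour cell with 5000 UMIs held Vim, with a middle range of 12191 to 23302 CPM over cells. The calcium-binding protein S100a6 was 2783 CPM against 1738 to 2652 CPM, highest by CPM but not under TMM factors. Of the 10 genes of mesenchymal cytoskeleton and adhesion, 2 (Vim and S100a6) were highest (20%) and 0 lowest in EM3. Over all genes compared, 10.7% were highest and 15.4% lowest. The median log2 ratio of the 10 genes was 0.26, which was 0.05 without E. Axl (936 CPM, highest in M with 1068), Serpine2 (882 CPM, highest in EM2 with 1060.2) and Sparc, a matrix-binding glycoprotein (837 CPM, highest in EM1 with 909.9), all lay inside the range of the others. The cadherin of mesenchymal cells, Cdh2, was near the floor in every tumour, with 1 UMI in EM3, or 0.0340 CPM. EM3 therefore combined the lowest levels of many junction genes with compared genes of the mesenchymal list that, Vim and S100a6 aside, lay within the range by CPM. Cd44 was highest in EM3 under TMM factors and without the most abundant genes. Outside this list, Zeb2, Hmga2 and Col6a3 were highest in EM3, and the collagens Col4a1 and Col4a2 lowest.

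**Figure D2:**
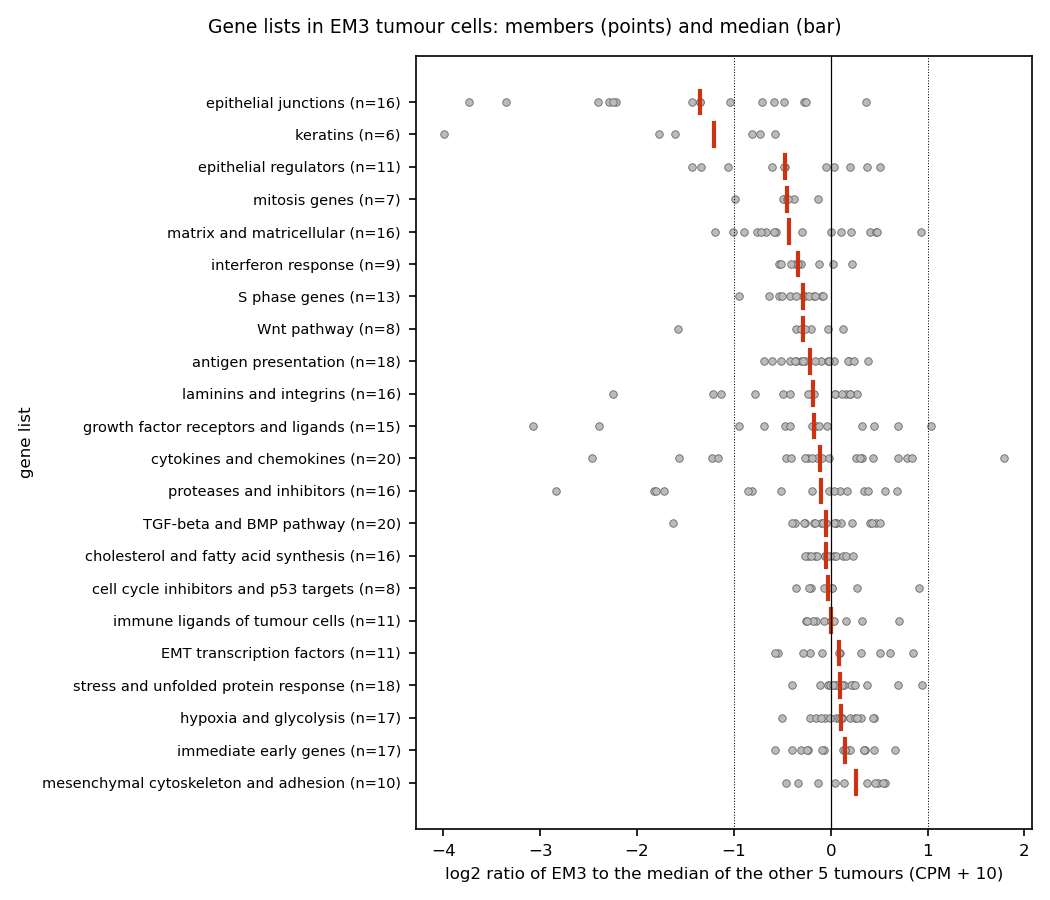
Log2 ratio of EM3 to the median of the other 5 tumours (CPM + 10) for the members compared of 22 gene lists. Points are genes, red bars are list medians, n is the number compared, and dotted lines mark 2-fold. The epithelial junction (-1.35) and keratin (-1.21) medians lie left of the line at -1, and the other list medians lie between -0.47 and 0.26.

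The 11 genes called below the range also held genes with no known part in epithelial junctions. Hspb1, a small heat shock protein, was nearly unread in EM3, with 15 UMIs or 0.510 CPM (95% interval 0.285 to 0.840), against 44.9 in E, 180.3 in EM1, 60.2 in EM2, 38.3 in M and 66.1 in the parental tumour. Other cells of the same library did express it, with 221 CPM in endothelial cells, 108 CPM in fibroblasts and 18.1 CPM in macrophages. At 5000 UMIs, 2 of 1861 EM3 tumour cells (0.107%) held a UMI, below the 1.77% of macrophages. Fgfr1, a receptor of fibroblast growth factors, gave 21 UMIs or 0.713 CPM (95% interval 0.442 to 1.09), against 23.8 in E, 117 in EM1, 80.4 in EM2, 86.3 in M and 26.2 in the parental tumour. EM3 fibroblasts stood at 885 CPM, and 10 of 1861 tumour cells held a UMI (0.537%), below the 1.37% of macrophages.

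Ube2ql1, of the family of ubiquitin-conjugating enzymes, gave 1 UMI in all EM3 tumour cells, or 0.0340 CPM (95% interval 0.000860 to 0.189). The others held 20.02 in E, 38.3 in EM1, 35.98 in EM2, 28.1 in M and 78.8 in the parental tumour. Without the parental tumour, where it was highest, the gene no longer reached 50 CPM. Syt8, a synaptotagmin, was 5.94 CPM against 28.4 to 53.9 CPM. Id3, an inhibitor of basic helix-loop-helix factors and a target of BMP signals, lay just outside the 2-fold limit with 79.9 CPM against 294 in E, 312 in EM1, 169 in EM2, 267 in M and 230.4 in the parental tumour. The genes next to these on the chromosome were not low with them. Beside Fgfr1, Tacc1 stood at 32.6 CPM and Nsd3 at 320.1 CPM in EM3. Beside Hspb1, Mdh2 was 169 CPM and Ywhag 1365 CPM, and beside Epcam, Calm2 was 207 CPM, all less than 2-fold from the lowest other tumour. Other genes among the 15 lowest ratios were Tnnt2, cardiac troponin T, with 108 CPM against 195 to 376 CPM, the potassium channel Kcnk1 with 2.55 against 13.2 to 121 CPM, and Uaca with 44.2 against 89.5 to 203 CPM.

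At the upper end, Col6a3, a chain of collagen VI, was the gene called above the range, with 56.97 CPM (95% interval 54.3 to 59.8) in EM3 and 7.67 in E, 11.2 in EM1, 13.5 in EM2, 2.07 in M and 8.63 in the parental tumour. It falls outside the rule for named genes, because EM3 fibroblasts held 2533 CPM, and it is given here after its values were seen. A Col6a3 UMI was present in 13.2% of EM3 tumour cells at 5000 UMIs, in 1.18 to 5.16% of the tumour cells elsewhere and in 1.80% of EM3 macrophages. The sum of fibroblast markers in EM3 tumour cells (243 CPM) was inside the 208 to 365 CPM of the other tumours. Its partner chains Col6a1 (405 CPM, others 185 to 456) and Col6a2 (144 CPM, others 24.5 to 249.8) were inside the range.

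The 15 genes with the highest ratios to the highest other tumour, set-aside genes left out, were all short of 2-fold. Sele, E-selectin, an adhesion molecule known from activated endothelium, was 75.8 CPM in EM3, against 2.24 in E, 10.1 in EM1, 7.29 in EM2, 24.04 in M and 35.6 in the parental tumour. It was found in 17.7% of EM3 tumour cells and 0.935 to 8.76% elsewhere. EM3 endothelial cells held 268 CPM, while the endothelial markers summed to 7.07 CPM in EM3 tumour cells. Slpi, a secreted inhibitor of leukocyte proteases, was 3979 CPM against 440.4 in E, 2049.7 in EM1, 1673 in EM2, 2159 in M and 1769 in the parental tumour. Rgcc, a regulator of the cell cycle, was 284 CPM against 92.96 to 146 CPM, and Ak1, an adenylate kinase, was 71.7 CPM against 4.86 to 38.3 CPM.

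Syt13, a synaptotagmin, was 309.8 CPM in EM3 and 27.1 to 175 CPM elsewhere, lowest in E. Chst11, a sulfotransferase of chondroitin, was 192 CPM against 47.5 to 115 CPM, and P2ry6, a receptor of UDP, was 138 CPM against 24.3 to 74.5 CPM. Rassf8 (426 CPM, others 134 to 256), Gem, a small GTPase (87.4 CPM, others 21.3 to 41.8), and Hacd1, an enzyme of fatty acid elongation (114 CPM, others 38.7 to 61.2), complete the set with Hmga2 and 4 genes of chromosome 3 given below. In each of these genes EM3 was the highest of the 6 tumours. EM2 was often next: without EM2, 8 genes lay 2-fold above the range, Ak1, Npnt and Gem among them, and without the parental tumour 6 did, Sele, Rassf8 and Rgcc among them.

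The counts of the lists that follow read against all genes compared, of which 15.4% were lowest and 10.7% highest in EM3. With 1 tumour left out, those shares rose to 17.6 to 22.3% lowest and 12.3 to 15.9% highest, and under TMM factors they were 7.79% and 12.2%. Among proteases and their inhibitors several collagen- and gelatin-degrading enzymes were lowest in EM3. Mmp13, a collagenase, was 7.10 CPM in EM3, against 177 in E, 307 in EM1, 62.3 in EM2, 9.24 in M and 112 in the parental tumour. Mmp9, a gelatinase, was 31.6 CPM against 195 in E, 140.0 in EM1, 66.9 in EM2, 127 in M and 83.9 in the parental tumour. The stromelysins Mmp3 (32.7 CPM, others 59.4 to 320.1) and Mmp10 (11.8 CPM, others 14.2 to 103) were lowest in EM3 as well. Timp1, an inhibitor of these proteases, was highest in EM3 with 358 CPM (others 139.5 to 258), as was Plaur, the urokinase receptor, with 977 CPM (others 536 to 869.9). The membrane-bound Mmp14 was inside the range, at 439 CPM. Of 16 proteases and inhibitors, 5 were lowest (31.2%) and 2 highest (12.5%) in EM3, the latter near the share of all genes, with a median log2 ratio of -0.10, or -0.30 without the parental tumour.

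The basement membrane collagens Col4a1 (148 CPM, others 271 to 623) and Col4a2 (58.3 CPM, others 88.3 to 215) were lowest in EM3. Fn1, fibronectin, was 12682 CPM in EM3 and 5005 to 15088 CPM in the others, and Spp1, osteopontin, was 6908 CPM against 5277 to 7911 CPM. Of 16 matrix genes 4 were lowest (25%) and 0 highest, or 5 and 2 without EM1, and their median of -0.43 became -0.04 without E. Of 16 laminins and integrins 3 were lowest (18.8%) and 0 highest, with a median of -0.19, a share near that of all genes. Without M 7 were lowest and 1 highest, and without EM1 4 and 2 of 14.

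Among growth factor genes, EM3 was lowest in 7 of 15 (46.7%) and highest in 1 (6.67%). Pdgfb, a platelet-derived growth factor, was 1.87 CPM (95% interval 1.41 to 2.43) in EM3, against 101 in E, 95.7 in EM1, 10.2 in EM2, 40.3 in M and 52.2 in the parental tumour. Its fold from EM2 stayed short of 2 on the CPM + 10 scale. Pdgfa (169 CPM, others 239 to 391), the receptor Igf2r (199.7 CPM, others 264 to 348) and Vegfc, a growth factor of lymphatic vessels (30.1 CPM, others 32.7 to 122), were lowest too. Vegfa, which acts on blood vessels, was highest, at 875 CPM against 557 to 787 CPM. The median of the list was -0.18, and -0.30 without EM2. In the TGF-beta and BMP pathway the ligand Tgfb1 (126 CPM, others 124 to 153) and the receptors Tgfbr1 (129 CPM) and Tgfbr2 (204 CPM) were inside the range, and 3 of 20 genes were lowest (Id3, Smad3 and Inhbb) and 3 highest (Ltbp1, Id2 and, though not by the mean over cells, Tgfbr3), 15% each and near the shares of all genes. In the Wnt pathway 2 of 8 were lowest (25%), or 5 of 8 without the parental tumour and 1 under TMM factors, among them the ligand Wnt10a (11.9 CPM, others 20.3 to 79.4).

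Signals to immune cells held single genes at either end of the range. Ptgs2, the inducible cyclooxygenase of prostaglandin synthesis, was highest in EM3 with 5188 CPM, against 769 in E, 3401 in EM1, 2894 in EM2, 2019 in M and 3815 in the parental tumour. Csf1, a growth factor of macrophages, was 315 CPM against 189 to 294 CPM. The chemokines Cxcl5 (22.3 CPM, others 40.6 to 226), Cxcl16 (27.2 CPM, others 48.2 to 116) and Cx3cl1 (58.8 CPM, others 62.3 to 308) were lowest in EM3. Ccl2, which attracts monocytes, was 4.89 CPM in EM3 and 10.1 in E, 72.3 in EM1, 4.05 in EM2, 106 in M and 195 in the parental tumour, so EM3, EM2 and E were low and the other 3 high. Over 20 cytokine and chemokine genes, 4 were lowest (20%) and 2 highest (10%), near the shares of all genes, with a median of -0.11 that became 0.13 without the parental tumour. None of 18 antigen presentation genes and none of 11 immune ligands was highest or lowest in EM3 by CPM. Pdia3, a disulfide isomerase, was highest under TMM factors and without the abundant genes. H2-K1, a class I heavy chain, was 736 CPM (others 486 to 1101), B2m 575 CPM (others 306 to 583) and Cd274, the ligand PD-L1, 17.4 CPM (others 6.46 to 61.4). The antigen presentation median of -0.21 became 0.06 without EM1 and 0.01 without E or EM2.

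Genes of dividing cells were not among those high in EM3. The S phase genes had a median log2 ratio of -0.29, with 13 of 13 below the median of the other tumours and 3 lowest (23.1%), and the mitosis genes -0.45, with 7 of 7 below and 0 lowest. Without E, 8 of the 13 S phase genes were lowest, beside 22.3% of all genes, without M 5, and without E and M 10, beside 28.1%. The mitosis median was -0.10 without EM2 and -0.12 without M or without the parental tumour. Top2a, a topoisomerase of dividing cells, was 165 CPM in EM3 and 112 to 330.0 CPM elsewhere. Of the glycolysis and hypoxia genes, 2 of 17 were highest, Hk1 (not under TMM factors) and the hypoxia factor Hif1a (124 CPM, others 66.04 to 100.3), and 1 was lowest, Hk2 (271 CPM, others 317 to 423). Stress genes (2 of 18 highest, 0 lowest), interferon response genes (1 of 9 lowest), immediate early genes (3 of 17 lowest), cholesterol and fatty acid synthesis genes (1 of 16 lowest) and cell cycle inhibitors with p53 targets (1 of 8 highest, 2 lowest) had medians between -0.34 and 0.14. Counts this small moved with single tumours. Without E 4 glycolysis genes were lowest and 3 immediate early genes highest. Without EM2 5 TGF-beta and BMP genes were lowest and 2 cholesterol genes highest. Without M 3 growth factor and 4 cytokine genes and 2 immediate early genes were highest, and 2 stress genes lowest. Without the parental tumour 4 glycolysis and 5 stress genes were highest and 3 interferon genes lowest. Under TMM factors 3 growth factor and 4 stress genes were highest.

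Set against each other tumour in turn, EM3 was nearest to EM2 and to the parental tumour. EM3 was at least 2-fold above EM2 in 36 genes (0.715%) and below it in 71 (1.41%). Against the parental tumour the numbers were 40 (0.801%) and 56 (1.12%), against EM1 59 (1.16%) and 124 (2.44%), against M 117 (2.26%) and 112 (2.16%), and against E 200 (3.76%) and 362 (6.8%). Across the 5828 genes, which are not independent replicates, Pearson's r of log2(CPM + 10) was 0.940 with EM2 and with the parental tumour, 0.918 with EM1, 0.907 with M and 0.791 with E. The split against E depends on the scaling. With TMM factors of edgeR the median of all genes moved from 0.02 to 0.45, and 709 genes lay above and 177 below, so that 80.0% of the genes past 2-fold were higher in EM3, in place of 35.6%. With the same factors the numbers were 29 above and 95 below against EM2 (23.4% in place of 33.6% higher) and 53 and 49 against the parental tumour (52.0% in place of 41.7%).

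Against E, where both tumours share droplet barcodes, the genes with the lowest ratios were the epithelial genes Cldn4, Epcam, Krt7, Krt14, Krt19, Cdh1, Cldn3, Cldn7 and Esrp1 with Lama3, a laminin chain of epithelial basement membranes (1.60 CPM in EM3 and 565 CPM in E). Those with the highest ratios began with Serpine2, at 882 CPM in EM3 and 3.55 CPM in E. Others were Bmp7, a ligand of BMP receptors (177 and 1.87 CPM), the membrane proteins Pmp22 (161 and 10.3 CPM) and Emp3 (496 and 62.3 CPM), and the nuclear receptor Nr4a2 (743 and 97.7 CPM), with Ptgs2, Sele, Syt13 and Slpi. The shift of 0.43 in the median under TMM factors is smaller than the ratio of each of these genes. In Serpine2, Bmp7 and Emp3, EM3 was not the highest tumour, and E stood alone at the low end.

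Against M, the other tumour with low epithelial genes, the genes furthest apart were of several kinds. EM3 was higher in Sfn, the 14-3-3 sigma protein of epithelial cells (428 CPM in EM3 and 35.7 CPM in M), in Sema7a, a semaphorin (320.3 and 46.9 CPM), in Nt5e, the ectoenzyme CD73 that makes adenosine (714 and 162 CPM), and in Ggct, an enzyme of glutathione breakdown (126 and 14.3 CPM). The proteoglycan Sdc3, the protease Tmprss11e, the channel Trpm6, and Rbpms, Zdhhc2 and P2ry6 completed the 10 highest ratios. EM3 was lower than M in Itih2 (0.306 and 102 CPM), Csn3, a milk casein (2.41 and 102 CPM), Dennd2a (0.238 and 60.99 CPM), Gpnmb (7.07 and 134 CPM) and Cavin2, a protein of caveolae (31.05 and 187 CPM). Itih2, Csn3, Dennd2a and Gpnmb were below 16 CPM in every tumour but M, so these ratios set M apart more than EM3. Ramp1, Trp53i11, Ctla2a and the epithelial Cldn4 and Krt7 were the others among the 10 lowest.

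The 10 genes with the highest CPM in EM3 tumour cells were Vim, Fn1, Spp1, Lmna, Eef1a1, Ier3, Ptgs2, Slpi, Igfbp4 and Odc1. Lmna, lamin A/C of the nuclear envelope, was 6001 CPM (others 3997 to 5589.9), and Igfbp4, which binds insulin-like growth factors, was 3610.0 CPM (others 1145 to 3664), and highest without the abundant genes or with the mean over cells. Of these 10, Vim, Lmna, Ptgs2 and Slpi were highest in EM3.

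Genes highest in EM3 were not evenly placed on the chromosomes, a pattern that was noticed in these data and is given as a description. Of 305 genes compared on chromosome 3, 150 (49.2%) were highest in EM3 and 3 were lowest, beside 8.54% highest among genes of the other chromosomes. Their median log2 ratio to the median of the other tumours was 0.25, beside -0.03 over all genes, and the median of the same chromosome was -0.26 to 0.04 in each of the other tumours. The shift was small per gene and shared by many, with 250 of the 305 genes above the median of the other tumours. It was unequal along the chromosome. In the first 100 Mb, the median was 0.17 and 65 of 192 genes were highest (33.9%). In the remainder it was 0.43, and 85 of 113 genes were highest (75.2%) and 0 lowest. That edge was set after the values had been seen. In bins of 20 Mb the median was 0.17 from 80 to 100 Mb and 0.40 from 100 to 120 Mb.

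Genes of the second stretch include Npnt, nephronectin, a matrix ligand of integrins, with 798 CPM in EM3 and 273 in E, 274 in EM1, 443 in EM2, 263 in M and 240.4 in the parental tumour. The heat shock cochaperone Dnajb4 was 268 CPM (others 91.5 to 143), the kinase Camk2d 335 CPM (others 147 to 195) and Rsbn1 343 CPM (others 156 to 203). These 4 are among the 15 genes with the highest ratios given above. Wls, which carries Wnt proteins to the cell surface, was 548 CPM (others 176 to 355), the kinase Hipk1 391 CPM (others 162 to 272) and the small GTPase Rap1a 198 CPM (others 89.05 to 136), 3 genes named for their place after their values were seen. Csf1 and the matricellular Ccn1 also lie there, and Ccn1, at 1107 CPM, was below E and EM1.

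**Figure D3:**
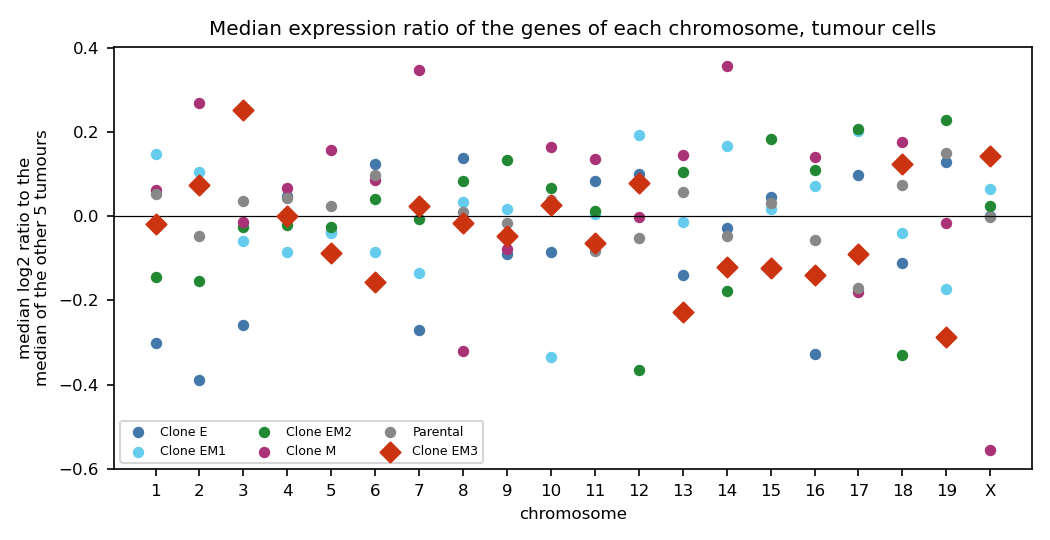
Median log2 ratio (CPM + 10) of the genes compared on each chromosome, for each tumour against the median of the other 5. Red diamonds are EM3, which stands at 0.25 on chromosome 3, above every other tumour, and at -0.29 on chromosome 19, below them.

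Macrophages and T and NK cells of the same libraries did not show the shift. In macrophages, the chromosome 3 median of EM3 against the other tumours was -0.02, and 20 of 208 genes (9.62%) were highest in EM3, beside 7.35% of all genes compared in macrophages. In T and NK cells it was -0.03, with 36 of 273 genes (13.2%) highest, beside 11.3%. Per cell, the part of chromosome 3 from 100 Mb held a median of 2.68% of the UMIs of EM3 tumour cells, against 1.66 to 1.96% in the tumour cells of the other tumours. The 10th percentile of the EM3 cells, 2.22%, was above all of those medians, so the shift was found across the cells and not in a few. In macrophages the same share was 1.15% in EM3 and 1.14 to 1.16% in the others, and in T and NK cells 1.52% and 1.40 to 1.53%.

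**Figure D4:**
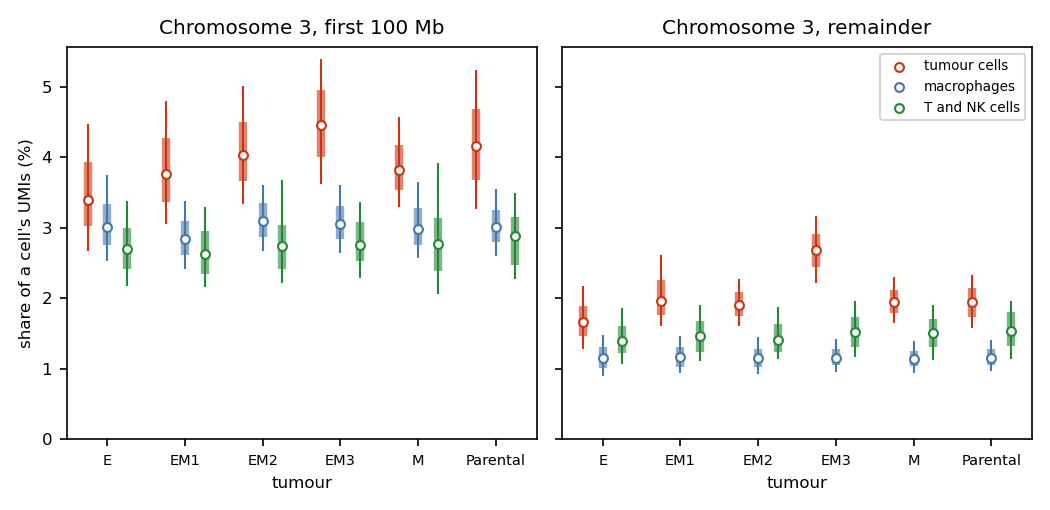
Share of each cell's UMIs from genes of chromosome 3, before and from 100 Mb, by tumour, for tumour cells, macrophages and T and NK cells with at least 2000 UMIs. Circles are medians, thick bars the middle range from the 25th to the 75th percentile and thin lines the 10th to the 90th. The EM3 tumour cells stand out in the right panel, with a median of 2.68%. The macrophages and the T and NK cells lie at like levels in all tumours.

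Chromosomes 19 and 13 lay at the other end. Over all genes compared in tumour cells, 15.4% were lowest and 10.7% highest in EM3. Under TMM factors the share lowest was 7.79%, and the lowest genes per chromosome were counted by CPM only. On chromosome 19, the median log2 ratio was -0.29 and 106 of 226 genes (46.9%) were lowest in EM3, with medians of -0.34 in the first 20 Mb and -0.15 from 40 to 60 Mb. On chromosome 13, the median was -0.23 and 75 of 182 genes (41.2%) were lowest, at -0.15 to -0.26 in every bin of 20 Mb. Chromosome 6 was at -0.16, with 89 of 258 genes (34.5%) lowest. The X chromosome was at 0.14 with 35 of 111 genes (31.5%) highest, a value that was 0.10 without M, whose own X median was -0.56. In T and NK cells of EM3, 28 of 140 genes of the X (20%) were highest too, at a median of 0.059, beside 11.3% of all genes. In macrophages 9 of 115 (7.83%) were highest, beside 7.35%. Other tumours had such chromosomes too, at either end. Among them were chromosome 2 at -0.39 in E and chromosome 12 at -0.37 in EM2. In M, chromosome 14 was at 0.36 and chromosome 7 at 0.35, above the 0.25 of EM3 on chromosome 3.

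The spread among EM3 tumour cells was measured after thinning 1861 cells to 5000 UMIs, as the excess variance, the variance beyond that of counting divided by the squared mean. Among 7241 genes with a mean of at least 0.1 UMI, the highest values often came from single cells. Tpsab1, a tryptase of mast cells, had an excess of 1568, and 1 cell held 186 of its UMIs. Ccl5, a chemokine of lymphocytes and macrophages, was next (433), with 91.4% of its UMIs in 1% of the cells. Rnf168, a ubiquitin ligase of DNA repair (47.4), and BC003965 (14.9) each owed their rank to 1 cell with 32 UMIs. Leukocyte genes were high on the list as well. S100a9 and S100a8, subunits of calprotectin, had 56.4% and 48.3% of their UMIs in 1% of the cells, were correlated over the cells (Pearson's r 0.63, n = 1861 cells of 1 library), and stood at 86579.9 and 58255 CPM in EM3 granulocytes. Mmp12, an elastase of macrophages (64.6), and Col1a1, a collagen of fibroblasts (26.4), are also genes of other classes, at 858 CPM in macrophages and 41533 CPM in fibroblasts.

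Other variable genes are given with the share of EM3 macrophages that held a UMI. Ccn2, a matricellular target of YAP, was found in 4.25% of EM3 tumour cells (1.03% of macrophages), with 5 or more UMIs in 17 cells. Csf2, the cytokine GM-CSF, was found in 8.01% of EM3 tumour cells (1.03% of macrophages), with 5 or more UMIs in 17 cells, and Cxcl10, an interferon-induced chemokine, in 5.27% (2.00%). Id3 was found in 14.8% of cells (2.83%) with an excess of 14.05, beside 2.92 to 4.15 in the other tumours. It was thus lower in EM3 and less even by this measure, in which a few cells weigh more at a low mean. Over the cells Id3 was correlated with Hspa1b (r 0.35) and Fos (r 0.31), and the part of other classes in its spread was not tested. Sema4a (9.94% of cells, below the 46.9% of macrophages) and Iqcn (4.94%, and 1.67% of macrophages) completed the 15 with Cdc20, an activator of the anaphase-promoting complex. Mitosis genes were concentrated in part of the cells. The mitosis genes gave 0 UMIs in 44.2% of cells and 5 or more in 15.6%, and 67.9% of their UMIs lay in the top 10% of cells. The S phase genes were more even, with 0 UMIs in 3.87% of cells, 5 or more in 40.9%, and 34.9% of their UMIs in the top 10%. The lists also differ in level, with sums of 660 CPM for mitosis and 1096 CPM for S phase in EM3. Histone genes varied together (Hist1h2ae and Hist1h2ap, r 0.67), as did the mitotic genes Ccna2 and Nek2 (r 0.49). By contrast, Vim (excess 0.189), Axl (0.208) and Hmga2 (0.296) were even across the cells, Krt8 (0.539) less so, and Serpine2 (1.65) and Slpi (2.29) uneven, with Slpi at 417 to 4658 CPM between the quartiles.

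**Figure D5:**
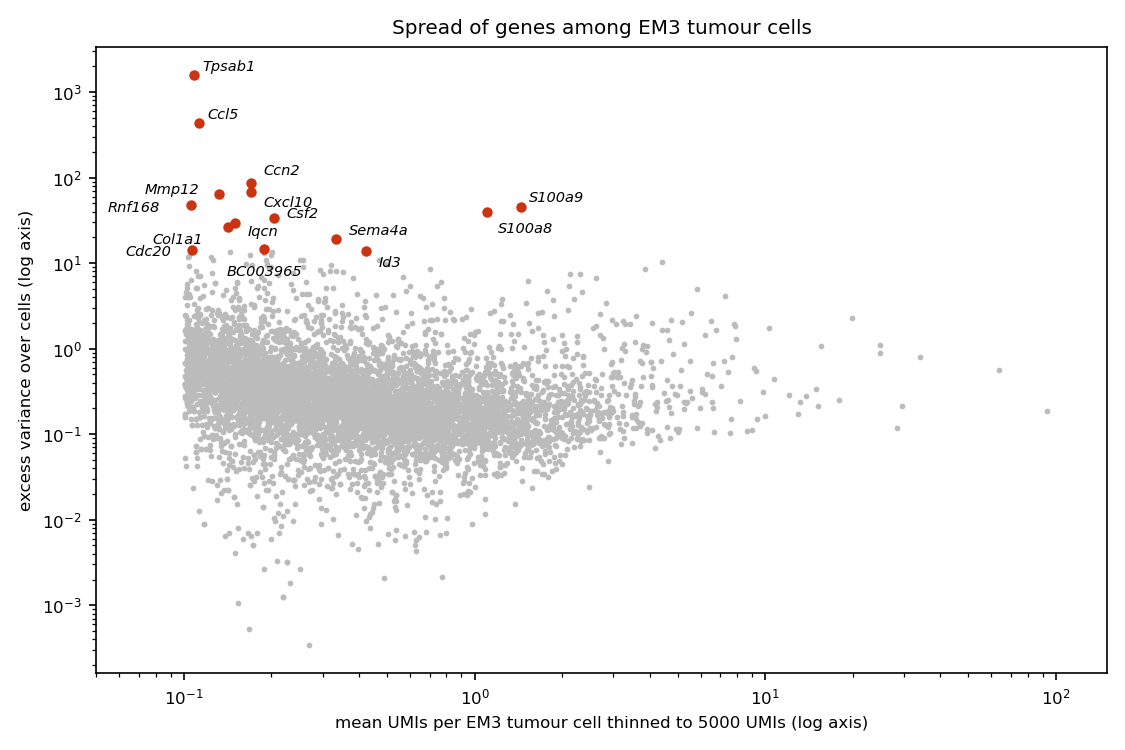
Excess variance over cells against mean UMIs per cell for genes with a mean of at least 0.1 UMI in 1861 EM3 tumour cells thinned to 5000 UMIs (both axes log, genes with an excess of 0 or less not drawn). Red points are the 15 genes with the highest excess, led by Tpsab1 at 1568, and grey points are the other genes.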

How the data were processed

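Single-cell RNA libraries of 6 tumours were analysed, 1 Total library each, with the CD45 libraries used for cell barcodes only. Raw UMI counts of every gene in every cell were deposited by the authors, and a second deposited table gives, per the file headers, the mitochondrial percent per cell and the authors' cell annotation. Cell Ranger, with no version, and mm10 are named per the submitters' processing notes. Tissue was dissociated enzymatically and the cells were fixed, per the labels' protocols. The labels name both a fixed-RNA kit and 3′ reagents, so which part of a transcript was read is not settled. A gene whose probe or tag misses its transcript in all lines would read low in every library. Whether a probe or tag missed a transcript in 1 line only was not tested. Limits on cells set before deposit are not given in the sources used here, and the fewest genes in a cell ranged from 250 in EM1 to 650 in the parental tumour.

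Counts of the 19369 genes were summed over annotated tumour cells per library and scaled to CPM, with exact Poisson intervals at 95%. Ratios are log2((CPM + 10) ratios), which understate the change of low genes. Genes with 50 CPM or more in at least 1 tumour were compared, and called past 2-fold. With 1 tumour per group no test was made. The TMM factors came from edgeR 4.0.16 in R 4.3.3 on the summed counts. Doublets were called with Scrublet in scanpy 1.11.5 (2 simulated doublets per cell, 30 components, expected share 6%, limit 0.2817) and kept. Cells were thinned once to 5000 UMIs, which left out 125 EM3 tumour cells. The calling was tested on simulated counts with the same mean in all 6 libraries apart from set folds in EM3. That test held no variation between tumours, so it cannot show how often a single tumour falls outside the range. Gene positions, symbols and promoters came from RefSeq tables of GRCm38.p6, which matched 5760 of the 5828 genes compared.

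Named were the 15 highest and 15 lowest ratios to the range of the others, the 10 highest and lowest against E and against M, the 15 most variable and the 10 most abundant genes, and members of the lists. Some genes that these rules name are not reported here. For high ratios a gene was set aside where its CPM in EM3 tumour cells was under 1/5 of that in another class of at least 50 EM3 cells (350 genes), and for low ratios where this held in the tumour with the lowest other value (575 genes). List members were kept. The cells and the gene lists were chosen with earlier results of these data known. Alternatives were TMM, CPM without mitochondrial, ribosomal protein and the 20 most abundant genes, pseudocounts of 1 and 50 CPM, filters of 10 and 200 CPM, cells without doublets, without Ptprc or with at least 1500 genes, the mean over cells, and leaving out each other tumour. Chosen after the data had been seen were the chromosome medians, the reference without both E and M, and the cells without shared droplet barcodes.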

Additional observations from a re-analysis of the deposited data

How the results depend on the processing

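No paired analysis was possible because each group is 1 tumour and no result comes from a test. Members of the lists that were lowest or highest in EM3 and lost that place were S100a6, Hk1, Krt18, Cdkn1b, Ier2, Itgb3, Itgb5, Fdft1, Fzd6, Uhrf1 and Fosl1 under TMM, Fdft1, Krt18 and Uhrf1 without abundant genes, and Ccl5, Col3a1, Tgfbr3, Cdkn1b, Ier2 or Uhrf1 under a choice of cells or the mean over cells. Genes named, listed or used as markers that gained such a place numbered 13 under TMM and 6 without abundant genes. Under at least 1 setting 9 list medians changed sign: -0.11 for cytokines became 0.099 without Ptprc cells and 0.13 without the parental tumour, -0.43 for matrix genes became 0.16 without E and M, and the 7 others lay between -0.21 and 0.084 by CPM. Against the parental tumour and E the excess of lower over higher genes turned under TMM. The depth of E, 5345546 UMIs, limits its low genes most, and the lists rest on 1 tumour per line. All 11 genes called below the range were called again under TMM, without the abundant genes, in each alternative choice of cells, with the mean over cells, with a pseudocount of 1 and with a filter of 10 CPM. A pseudocount of 50 CPM kept 2 of them, a filter of 200 CPM kept 5, and leaving out E or the parental tumour kept 10.

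Genes below the range numbered 33 with a pseudocount of 1, 2 with 50, 5 with a filter of 200 CPM, 25 without E and M together, and 10 to 27 with 1 other tumour left out. Genes above the range numbered 3 under TMM, 2 without abundant genes, 3 and 0 with pseudocounts of 1 and 50, 3 and 0 with filters of 10 and 200 CPM, 2 without E and M, 2 without shared droplet barcodes, and 1 to 8 with 1 tumour left out.

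Genes higher in EM3 numbered 709 against E under TMM. With a pseudocount of 50 they were 85 against E, 26 against EM1, 20 against EM2, 47 against M and 15 against the parental tumour. With a filter of 200 CPM they were 95, 21, 21, 47 and 16, and with 10 CPM 102 against EM1 and 176 against M. Genes lower in EM3 numbered 177 against E under TMM. In the same order of tumours they were 175, 64, 27, 37 and 26 with a pseudocount of 50, 118, 43, 15, 31 and 16 with a filter of 200 CPM, and 694, 195, 109, 199 and 107 with 10 CPM. The pseudocount and the filter change these counts by their construction.

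The median log2 ratio of chromosome 3 was 0.19 with a pseudocount of 50 and 0.34 with a filter of 200 CPM, and the share of its genes highest in EM3 was 59.8% with that filter, 44% with a filter of 10 CPM, 64.4% without E and M, and 51.5 to 55.7% with 1 tumour left out. Over all genes compared, the share highest in EM3 was 13.5%, 9.77%, 22.8% and 12.3 to 15.9% in that order. Chromosome 13 was at -0.14 and -0.32 with a pseudocount of 50 and a filter of 200 CPM. Chromosome 19 was at -0.23 under TMM, -0.32 and -0.19 with pseudocounts of 1 and 50, -0.33 with a filter of 200 CPM and -0.34 to -0.23 with 1 tumour left out. Chromosome 6 was at -0.11 and -0.12 with a pseudocount of 50 and a filter of 200 CPM, and -0.19 to -0.15 with 1 tumour left out. The X chromosome was at 0.094 with a pseudocount of 50, 0.081 without E and M, and 0.095 to 0.19 with 1 tumour left out.

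The epithelial junction median was -2.5 and -0.46 with pseudocounts of 1 and 50. With 1 tumour left out, the medians ranged from -0.32 to 0.060 for antigen presentation, from -0.50 to -0.10 for mitosis genes and from 0.024 to 0.26 for stress genes. The cause was not tested for any of these.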
